A study of Rattus norvegicus with 10 samples.

Results

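DNAJ proteins, also called Hsp40 or J proteins, are the co-chaperones that bring unfolded proteins to the Hsp70 chaperones and switch on the ATPase of Hsp70 through their J domain. Class A members keep the domain order of bacterial DnaJ, with a zinc finger region, class B members have the J domain and a glycine-rich stretch without the zinc finger, and class C members share little but the J domain and serve at fixed places such as the endoplasmic reticulum (ER), mitochondria, synaptic vesicles and ribosomes. In neurons they are known for keeping synaptic proteins folded and aggregation-prone proteins soluble. The members were the rows of the gene table whose symbol starts with Dnaja, Dnajb or Dnajc and a number, with a level of at least 0.5 FPKM (fragments per kilobase of transcript, scaled to the mapped reads of each library) in at least 5 of the 10 libraries. This took 40 of 45 matching rows, 1 row per symbol, out of 15169 genes that passed the same filter and 32623 rows in all. They were 4 of 4 class A, 11 of 13 class B and 25 of 28 class C genes.

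The libraries were bulk poly(A) RNA of rat cerebral cortex, 5 from an electroacupuncture (EA) group and 5 from a control group, and the question was which genes change in the cortex after EA. EA is acupuncture with an electric current passed through the needles, here 3 mA at alternating 2 and 100 Hz for 40 min at the Baihui and Shuigou points of adult male Sprague-Dawley rats. The control group had the same binding as the EA group over 40 min, with no needling or current described. Pentobarbital anaesthesia and saline perfusion of the body preceded removal of the cortex, and the time between EA and this step and the rats' age in weeks are not given in the sources used here. That each library is a separate rat is taken from its own replicate number and is not stated outright, so the p-values measure the spread between these libraries. In bulk tissue, fewer cells of a type and less RNA per cell cannot be told apart.

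Total counts were 55223193 to 61707722 in the control libraries and 47843590 to 60941939 in the EA libraries, and the lowest total was EA 3. Mitochondrial genes took 46.7% of the FPKM of EA 3, against 38.2 to 45.1% in the control and 41.7 to 42.7% in the other EA libraries. Structural RNA genes (snRNA, rRNA and the like) summed to 1195 FPKM in EA 2 and 1533 FPKM in EA 5, against 325 to 375 FPKM in the other 8 libraries. The 7 neuron markers summed to 2452 to 2981 FPKM in the 10 libraries and the 4 striatum markers to 74.8 to 84.4 FPKM. Most of the striatum sum was Ppp1r1b, at 70.2 FPKM in EA 3 to 80.3 FPKM in EA 2. Sums of unlike lists cannot show that the tissue was cortex, which is taken from the labels. Oligodendrocyte markers had a lower EA mean in 6 of 6 genes (summed FPKM 962 to 1385 in control, 849 to 1089 in EA), and endothelial markers in 5 of 5 (54.9 to 71.4 in control, 51.6 to 55.7 in EA). Blood markers were lower in 3 of 3 (6.16 to 34.2 in control, 4.04 to 13.5 in EA). Choroid plexus and ependyma markers were lower in 3 of 3, near the floor. The remaining lists had genes in both directions. Of the 9 lists, Pecam1 (endothelium), Col1a2 (meninges) and Foxj1 (ependyma) had no row. No marker with a row stood at 0 in all libraries. The choroid plexus markers Folr1 and Kl and the blood marker Alas2 were under 0.5 FPKM in all of them. The part of the marker differences in the results for the DNAJ genes was not tested. For structural RNA and EA 3, values with a covariate or without the libraries are given.

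Dnaja1, the most abundant member and a cytosolic partner of the constitutive Hsp70 Hspa8, rose in the cortex of EA rats by 32.1% in the edgeR fit of the counts. Dnajb1 and Dnajb4, heat-inducible cytosolic class B members, were 26.0% and 26.1% above control in the same fit. Their groups did not overlap in FPKM, but they passed the adjusted threshold by DESeq2 and not by edgeR. Dnajc4, a little-studied J protein with a membrane segment, lay lower in all 5 EA libraries than in all 5 controls and did not pass. For the other 36 members the groups overlapped.

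Dnaja1 stands on the plus strand of chromosome 5 at 57028467 to 57039378 in Rnor_6.0, the build of the deposited table. Its level was 90.5, 86.0, 83.3, 88.5 and 82.4 FPKM in control 1 to 5 and 123, 110, 101, 111 and 115 FPKM in EA 1 to 5. All 5 EA libraries lay above the highest control, EA 1 was the highest and EA 3 the lowest of them. The log2 fold change, EA against control, was 0.40 (SE 0.051, 95% interval 0.29 to 0.51, n = 5 and 5), with an edgeR adjusted p of 0.0220 and a DESeq2 adjusted p of 5.467e-09. Calls needed both an adjusted p below 0.05 and more than a 1.2-fold change. By this rule edgeR called 1 of the 40 members higher, where 0.0198% of all genes tested (3 of 15169) were called higher, and Dnaja1 held rank 3 by p over all genes. Dnaja1 missed the threshold when 1 of 7 libraries was left out, with an adjusted p of 0.0856 lacking control 2, 0.136 lacking control 3, 0.0936 lacking control 4, 0.130 lacking control 5, 0.0523 lacking EA 2, 0.0602 lacking EA 4 and 0.115 lacking EA 5, while the log2 fold change stayed between 0.37 and 0.43 in all 20 alternatives. Without both EA 2 and EA 5, the libraries rich in structural RNA, it was 0.41 with an adjusted p of 0.190.

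The sequence around the start of Dnaja1 is shown because it was the only member window with 3 units of the heat shock element, the site that heat shock factors bind. RefSeq promoter windows of the build GRCr8 (250 bases before to 50 after the start, 300 bases) were at hand for 32 of the 40 members. They were searched on both strands for 2 inverted units, GAANNTTC or TTCNNGAA, and for 3 units, GAANNTTCNNGAA or TTCNNGAANNTTC, so every 3-unit match also holds a 2-unit match. The 3-unit form was in 1 of 32 member windows (3.12%), against 0.798% of all 33469 windows and 0.503% of those of tested genes. The 2-unit form was in 5 of 32 (15.6%), those of Dnaja1, Dnajb1, Dnajb6, Dnajc18 and Dnajc27, against 15.9% of all windows and 11.4% of those of tested genes. Of the members whose EA and control groups did not overlap, Dnajc4 had a window without a match and Dnajb4 had no window in the reference. The windows of the cytosolic members Dnaja4, Dnajb2 and Dnajb5 also held no match. The matching windows of Dnajc18 and Dnajc27 are not printed. The windows of Dnaja1 (chr5:60638154-60638453, plus strand), Dnajb1 (chr19:41431092-41431391, minus strand) and Dnajb6 (chr4:6231955-6232254, minus strand) follow from 5′ to 3′ in the direction of the gene, with the repeat units in capitals.
Dnaja1: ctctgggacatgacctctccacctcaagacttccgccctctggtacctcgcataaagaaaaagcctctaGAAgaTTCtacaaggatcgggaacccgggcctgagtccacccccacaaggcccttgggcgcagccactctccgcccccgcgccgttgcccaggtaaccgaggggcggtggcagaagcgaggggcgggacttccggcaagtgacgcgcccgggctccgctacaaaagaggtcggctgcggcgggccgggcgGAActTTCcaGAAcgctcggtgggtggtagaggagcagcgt
Dnajb1: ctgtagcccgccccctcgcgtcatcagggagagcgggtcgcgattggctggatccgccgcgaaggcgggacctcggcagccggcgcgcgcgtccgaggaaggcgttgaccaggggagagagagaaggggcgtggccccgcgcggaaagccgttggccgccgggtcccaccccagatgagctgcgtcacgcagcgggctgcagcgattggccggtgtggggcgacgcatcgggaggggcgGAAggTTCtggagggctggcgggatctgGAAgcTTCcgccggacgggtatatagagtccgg
Dnajb6: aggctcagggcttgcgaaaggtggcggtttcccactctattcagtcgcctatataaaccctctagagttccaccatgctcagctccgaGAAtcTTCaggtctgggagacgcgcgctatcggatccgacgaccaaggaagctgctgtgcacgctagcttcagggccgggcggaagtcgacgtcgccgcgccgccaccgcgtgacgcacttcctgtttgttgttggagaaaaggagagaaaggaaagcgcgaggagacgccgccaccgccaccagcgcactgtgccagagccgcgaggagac
Counted from the annotated start, the 3 units of Dnaja1 begin at 10 and a further pair of units at -181. Dnajb1 holds a pair at -11 and another at 18, and the pair of Dnajb6 begins at -162. A match of letters is a description and not a site in use in these rats.

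**Figure D1:**
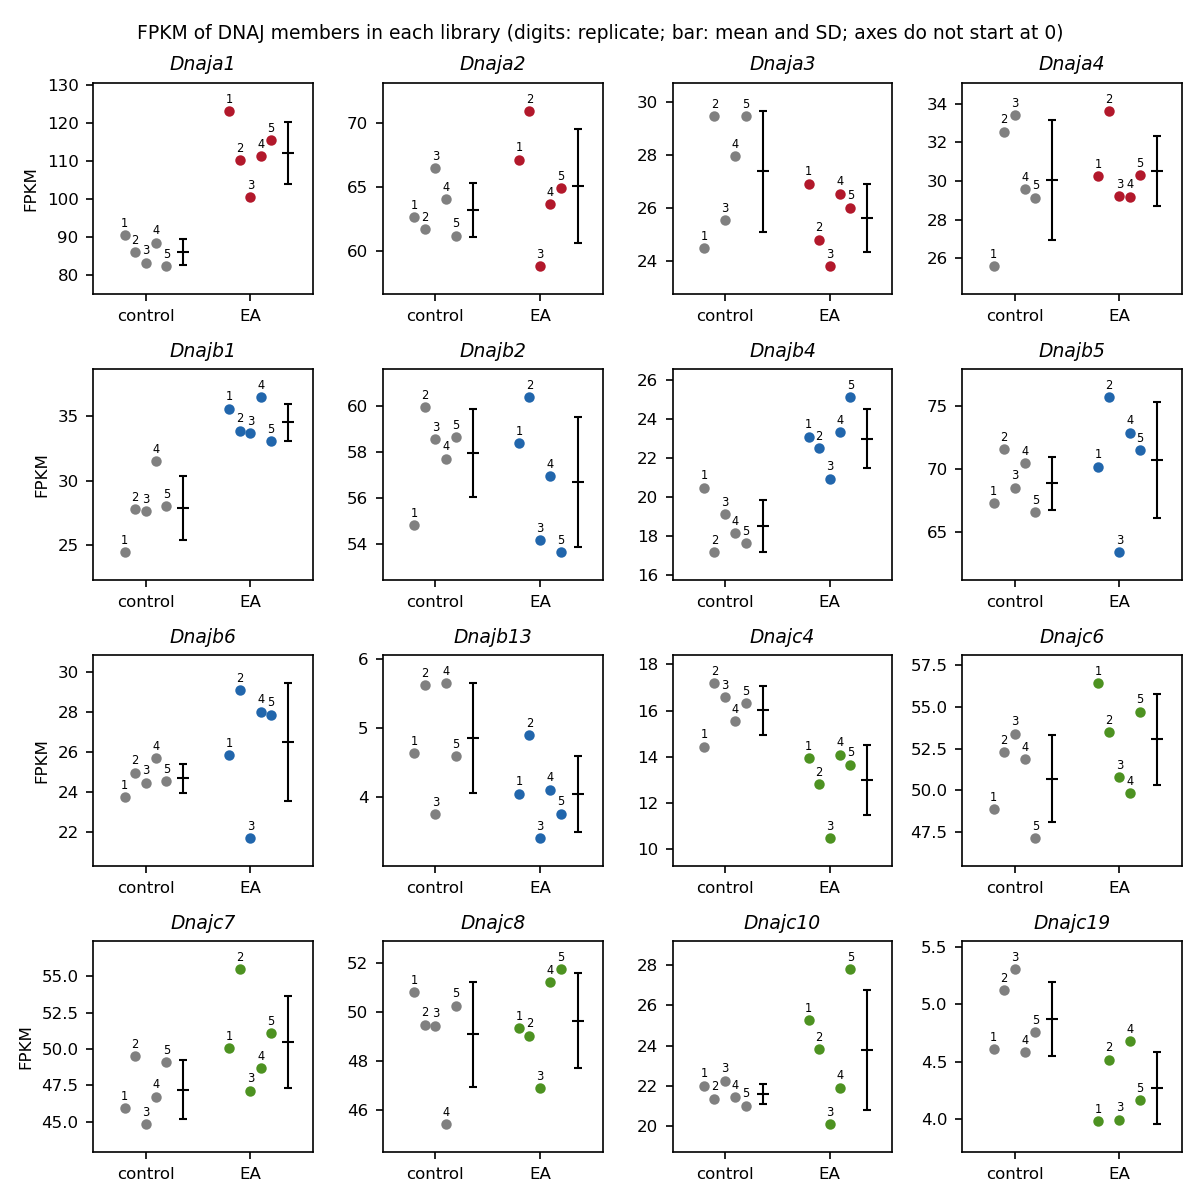
FPKM (vertical axes, which do not start at 0) of the 16 members described by library, each point a control (grey) or EA (coloured by class) library with its replicate number, beside the mean and SD of each group of 5. The EA libraries lie above all controls for Dnaja1 (101 to 123 FPKM), Dnajb1 (33.1 to 36.5) and Dnajb4 (20.9 to 25.1), and below them for Dnajc4 (10.5 to 14.1).

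The other class A genes showed no such separation. Dnaja2, a constitutive cytosolic co-chaperone in protein refolding, was at 62.6, 61.7, 66.5, 64.0 and 61.2 FPKM in control 1 to 5 and at 67.2, 71.0, 58.8, 63.7 and 64.9 FPKM in EA 1 to 5. Its groups overlapped and its log2 fold change was 0.06 (95% interval -0.04 to 0.17, edgeR adjusted p 0.607). Dnaja4, a further cytosolic member, had 25.6, 32.6, 33.4, 29.6 and 29.1 FPKM in control and 30.3, 33.6, 29.2, 29.2 and 30.3 FPKM in EA. The EA libraries lay within or just above the control range, with a log2 fold change of 0.05 (-0.10 to 0.20, adjusted p 0.817). Dnaja3, the mitochondrial class A member, gave 24.5, 29.5, 25.5, 28.0 and 29.5 FPKM in control and 26.9, 24.8, 23.8, 26.5 and 26.0 FPKM in EA, a log2 fold change of -0.07 (-0.19 to 0.05, adjusted p 0.603). For these 3 the whole interval stayed within a change of 1.2-fold in either direction.

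Summed over its 4 genes, class A had 207 FPKM ± 3.77 (SD, n = 5) in control and 233 FPKM ± 13.2 in EA, with ranges of 202 to 210 and 212 to 247 that did not overlap. Dnaja1 made up 97.8% of this difference of means. Without it the class A sum was 121 ± 4.92 FPKM in control and 121 ± 6.50 FPKM in EA. Class B summed to 254 ± 7.88 and 268 ± 13.0 FPKM, and class C to 452 ± 10.7 and 458 ± 16.9 FPKM, with overlapping ranges in both classes. The summed levels were not tested.

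Class B holds the classical stress-inducible Hsp40 and its cytosolic relatives, ER members and a few testis or cilia genes. Dnajb1, the canonical heat shock Hsp40 that works with Hsp70 and Hsp110 in pulling aggregates apart, stands on chromosome 19 at 24747178 to 24750919, plus strand. It was at 24.4, 27.8, 27.6, 31.5 and 28.0 FPKM in control 1 to 5 and at 35.6, 33.9, 33.7, 36.5 and 33.1 FPKM in EA 1 to 5. Every EA library was above the highest control, control 4, and the 5 EA values lay close together. With a log2 fold change of 0.33 (SE 0.056, 0.21 to 0.45) it did not pass by edgeR (adjusted p 0.0897) but passed by DESeq2 (adjusted p 9.731e-05). Its p was the 11th lowest of all genes by edgeR.

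Dnajb4, a close relative of Dnajb1 in the cytosol, stands on the minus strand of chromosome 2 at 257394818 to 257425242. It was at 20.5, 17.2, 19.1, 18.1 and 17.6 FPKM in control and at 23.1, 22.5, 20.9, 23.3 and 25.1 FPKM in EA. The lowest EA library, EA 3, was just above the highest control, control 1. Its log2 fold change was 0.33 (SE 0.062, 0.20 to 0.47) with an edgeR adjusted p of 0.133 and a DESeq2 adjusted p of 0.001551. The gene Fubp1 on the opposite strand ends or starts 437 bases away and had a log2 fold change of 0.28 (unadjusted edgeR p 0.00114). DESeq2 thus called 3 members higher, against 0.508% of all genes tested (77), and 0 members lower, against 0.6% (91). EdgeR called 0 members lower, where 0.0% of all genes were called lower, and 1 member, Dnajc4, was lower at an unadjusted p under 0.05, as were 7.15% of all genes.

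Dnajb6, which is known to hold back the aggregation of polyglutamine proteins, had 23.7, 24.9, 24.4, 25.7 and 24.5 FPKM in control and 25.8, 29.1, 21.7, 28.0 and 27.9 FPKM in EA. EA 3 lay below the lowest control and the other EA libraries above the highest, and the log2 fold change of 0.12 (-0.01 to 0.26) did not pass (adjusted p 0.407). Dnajb5, the most abundant class B gene and a relative of Dnajb1, was at 67.3, 71.6, 68.5, 70.5 and 66.6 FPKM in control and at 70.2, 75.7, 63.4, 72.9 and 71.5 FPKM in EA, with a log2 fold change of 0.06 (-0.03 to 0.15, adjusted p 0.568). Dnajb2, a neuron-enriched member that hands clients to the ubiquitin system, gave 54.8, 59.9, 58.6, 57.7 and 58.6 FPKM in control and 58.4, 60.4, 54.2, 56.9 and 53.6 FPKM in EA. Its log2 fold change was -0.01 (-0.10 to 0.09, adjusted p 0.964), so a change beyond 1.2-fold lay outside the interval.

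Of the 7 members counted as cytosolic and heat-inducible or related to such genes (Dnaja1, Dnaja4, Dnajb1, Dnajb2, Dnajb4, Dnajb5 and Dnajb6), 3 were higher at an unadjusted p under 0.05, where 6.59% of all genes were. Their median log2 fold change was 0.12, against -0.00 over all genes tested. This grouping was drawn up with earlier results of these data known, so its count is not independent evidence. The 2 testis or cilia genes were low in cortex. Dnajb13, a protein of the ciliary and sperm axoneme, had 4.63, 5.62, 3.76, 5.65 and 4.59 FPKM in control and 4.05, 4.90, 3.41, 4.11 and 3.76 FPKM in EA. Its log2 fold change of -0.24 (-0.51 to 0.04, adjusted p 0.433) did not pass and the groups overlapped. Dnajb3, known from testis, was the member just inside the level filter with a mean of 0.811 FPKM and 7 libraries at 0.5 FPKM or more. Its interval of -1.28 to 0.27 around a log2 fold change of -0.51 was the widest of the 40. The 5 genes outside the filter were Dnajb8, which was listed at 0 in all 10 libraries, and Dnajb7, Dnajc22, Dnajc5b and Dnajc5g, of which Dnajc22 came nearest with a mean of 0.118 FPKM.

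**Figure D2:**
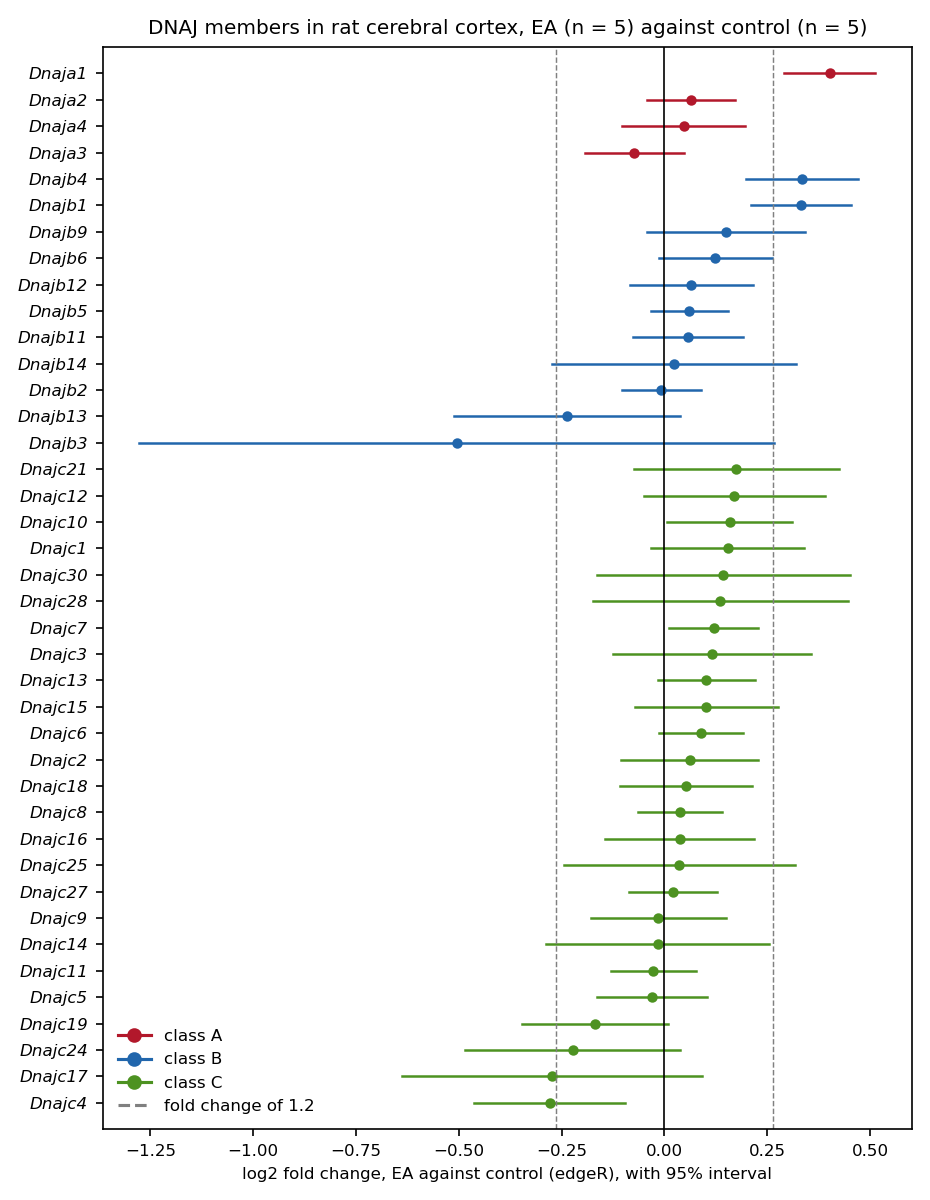
The log2 fold change of each of the 40 members, EA against control by edgeR, with its 95% interval, in order of class A, B and C, and dashed lines at a change of 1.2-fold. Only the interval of Dnaja1 (0.29 to 0.51) lies wholly beyond the dashed line, and the intervals of Dnajb1, Dnajb4, Dnajc4, Dnajc7 and Dnajc10 also leave out 0.

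Class C members are described by where they work. Among those placed in mitochondria, Dnajc4 (chromosome 1, 222242858 to 222246768, minus strand) had 14.4, 17.2, 16.6, 15.5 and 16.3 FPKM in control and 13.9, 12.8, 10.5, 14.1 and 13.7 FPKM in EA. All EA libraries lay below the lowest control, control 1, and EA 3 was the lowest. Its log2 fold change was -0.28 (SE 0.084, -0.46 to -0.10), with an unadjusted p of 0.00619, an edgeR adjusted p of 0.221 and a DESeq2 adjusted p of 0.0994. Its neighbour Vegfb, the vascular endothelial growth factor B gene 214 bases away on the same strand, had a log2 fold change of -0.29 (unadjusted p 0.137). Dnajc19, a part of the motor that pulls proteins through the inner membrane, gave 4.61, 5.12, 5.30, 4.58 and 4.76 FPKM in control and 3.98, 4.52, 4.00, 4.68 and 4.16 FPKM in EA. Of its EA libraries only EA 4 reached into the control range, and the log2 fold change of -0.17 (-0.35 to 0.01) had an adjusted p of 0.383. The 7 mitochondrial members, Dnaja3 included, had a median log2 fold change of -0.03, and 1 of them, Dnajc4, was lower at an unadjusted p under 0.05, against 7.15% of all genes.

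The ER holds 11 of the members, which serve the ER Hsp70 Hspa5 (BiP) or sit in its membrane. In 10 of the 11 the log2 fold change was above 0, as it was in 7504 of the 15169 genes tested, with a median of 0.06. EdgeR and DESeq2 called 0 of them, and 1, Dnajc10, was higher at an unadjusted edgeR p under 0.05, against 6.59% of all genes. Dnajc10, an ER disulfide reductase, was at 22, 21.4, 22.2, 21.4 and 21.0 FPKM in control and at 25.3, 23.8, 20.1, 21.9 and 27.8 FPKM in EA. The EA values were spread over a wider range on both sides of the controls, and the log2 fold change of 0.16 (0.01 to 0.31) had an unadjusted p of 0.0420 and an adjusted p of 0.342. Dnajb9 (log2 fold change 0.15), which delivers clients for ER-associated degradation, Dnajb11 (0.06), an abundant BiP co-chaperone, and Dnajc3 (0.12), also known as an inhibitor of the kinase PKR, are genes of the unfolded protein response, and each had an interval that held 0. In the annotation columns of the table, 10 members carried the label of protein processing in the ER, and their median log2 fold change was 0.09. This label is not the same set as the 11 ER members. It also covers Dnaja1, Dnaja2, Dnajb1, Dnajb2 and Dnajc5, which are placed in the cytosol or at synaptic vesicles here.

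The window of Dnajc3 is shown since it was the only one of the 32 with the ER stress element, CCAAT and CCACG with 9 bases between them, searched on both strands. This element was in 0.0657% of all windows and 0.156% of those of tested genes. The window is at chr15:102432417-102432716 on the plus strand of GRCr8 (RefSeq), and the capitals mark the element, which begins at -133 from the annotated start.
Dnajc3: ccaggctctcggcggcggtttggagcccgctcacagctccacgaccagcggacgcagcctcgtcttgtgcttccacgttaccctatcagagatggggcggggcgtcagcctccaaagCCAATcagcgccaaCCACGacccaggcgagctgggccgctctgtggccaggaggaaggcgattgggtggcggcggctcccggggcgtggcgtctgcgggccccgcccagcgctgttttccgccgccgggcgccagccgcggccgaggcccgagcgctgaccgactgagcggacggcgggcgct
Dnajc3 itself had 10.5, 9.33, 9.15, 10.2 and 7.76 FPKM in control and 8.33, 8.99, 10.5, 12 and 10.3 FPKM in EA, so the groups overlapped widely. The cyclic AMP response element TGACGTCA was in 2 of the 32 windows, those of Dnajc27 and Dnajc30, against 1.83% of all windows and 2.9% of those of tested genes.

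The members placed here at synaptic vesicles and endosomes had log2 fold changes from -0.03 to 0.10. Dnajc6, the neuronal auxilin that strips clathrin from vesicles, was at 48.9, 52.3, 53.4, 51.9 and 47.1 FPKM in control and at 56.4, 53.5, 50.8, 49.8 and 54.7 FPKM in EA. Its log2 fold change was 0.09 (-0.01 to 0.19, adjusted p 0.425). Dnajc5, the cysteine string protein of synaptic vesicles, was at 40.3 to 50.0 FPKM in control and 39.9 to 45.9 FPKM in EA, with a log2 fold change of -0.03. The group also held Dnajc13 (log2 fold change 0.10), an endosomal protein, and Dnajc27 (0.02), a Rab-like GTPase with a J domain. In the annotation columns of the table Dnajc27 carries a nucleus label, so its place in this group is uncertain. All 4 of 4 had intervals within a change of 1.2-fold. Over all members this held for 19 of 40, and over all genes tested for 35.6%.

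Dnajc7, a cytosolic protein whose TPR repeats bind Hsp70 and Hsp90, was at 45.9, 49.5, 44.8, 46.7 and 49.1 FPKM in control and at 50.0, 55.5, 47.1, 48.7 and 51.1 FPKM in EA. EA 1, EA 2 and EA 5 lay above the highest control, and the log2 fold change of 0.12 (0.01 to 0.23) had an unadjusted p of 0.0324 and an adjusted p of 0.317. Dnajc8, a protein tied to RNA splicing and the most abundant of the 5 nuclear and ribosomal members, gave 50.8, 49.5, 49.4, 45.4 and 50.3 FPKM in control and 49.3, 49.0, 46.9, 51.2 and 51.7 FPKM in EA. Its log2 fold change was 0.04 (-0.06 to 0.14, adjusted p 0.772). The nuclear and ribosomal members, which also include Dnajc2 (0.06), the ribosome-bound J protein, Dnajc9 (-0.01), a histone chaperone, Dnajc17 (-0.27) and Dnajc21 (0.17), had a median log2 fold change of 0.04.

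Across the family, 28 of the 40 log2 fold changes were above 0, where 7504 of the 15169 genes tested were. At an unadjusted edgeR p under 0.05, 5 members were higher (Dnaja1, Dnajb1, Dnajb4, Dnajc7 and Dnajc10) against 6.59% of all genes, and 1 was lower (Dnajc4) against 7.15%. Thus 1 of 4 class A, 2 of 11 class B and 2 of 25 class C genes were higher at that level. All EA libraries lay above all controls in FPKM for 3 members, against 0.85% of all genes, and below them for 1 member, against 2.25%. On TMM-scaled CPM (counts per library, scaled for depth) the same 4 members were without overlap, where 1.42% of all genes were above and 1.62% below. The median log2 fold changes were 0.06 in class A, 0.06 in class B and 0.05 in class C. The range within each class was far wider than the distance between these medians, and no test between the classes was made.

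**Figure D3:**
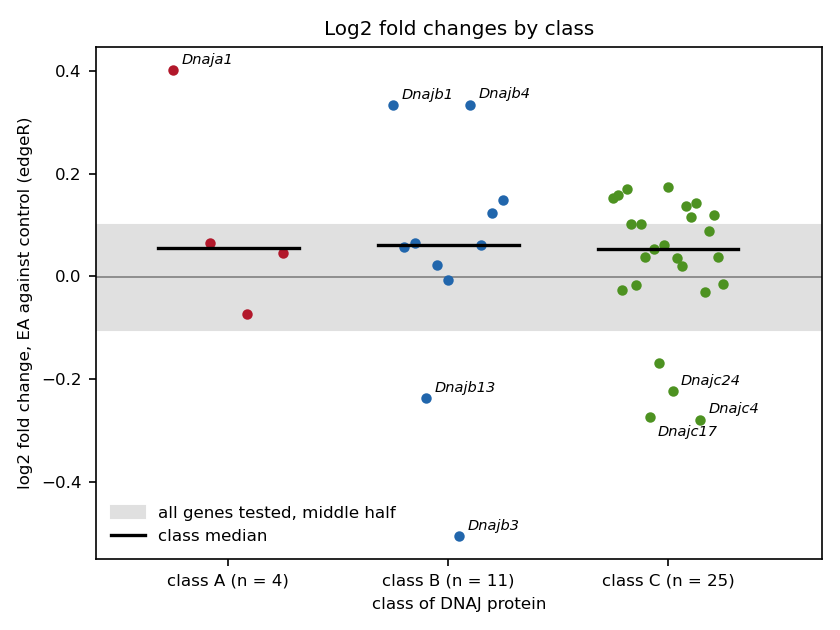
The log2 fold change of each member (EA against control by edgeR, a point per gene) by class A, B and C, with the class median as a bar and a grey band between the quartiles of all genes tested. The medians lie at 0.06, 0.06 and 0.05, while the members reach from -0.51 (Dnajb3) to 0.40 (Dnaja1).

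EA 3 stood apart from the other EA libraries within the family. It was the lowest EA library for 21 of the 40 members in FPKM, where it was the lowest for 31.8% of all genes tested, and for 19 of the 40 on TMM-scaled CPM, against 22.1% of all genes. Without EA 3, 9 members were higher at an unadjusted p under 0.05, the earlier 5 and Dnajb5, Dnajb6, Dnajc1 and Dnajc15. Without control 4 there were 3, Dnaja1, Dnajb1 and Dnajb4, which were also at that level in all 20 alternatives. The 1 lower member became 3 without control 4 and 2 without any of control 3, control 5, EA 1, EA 2 or EA 4. The share of all genes at that level was not counted in these alternatives, so these member counts have no share beside them. Over all genes, edgeR called 5 higher without EA 3 and 2 without control 4, against 3 with all libraries.

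**Figure D4:**
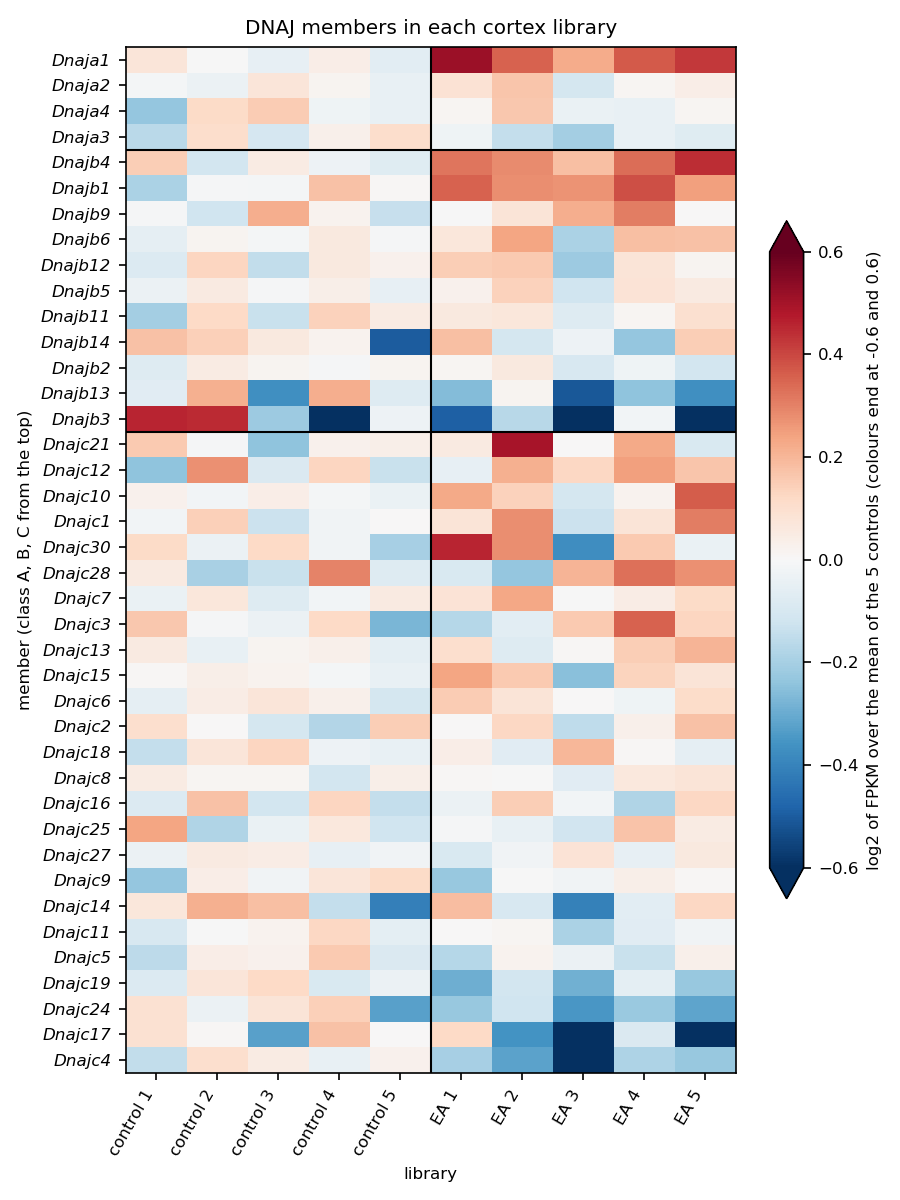
Each member (rows, classes A, B and C from the top) in each library (columns), coloured by log2 of its FPKM over the mean of the 5 controls, with colours ending at -0.6 and 0.6. The rows of Dnaja1, Dnajb1 and Dnajb4 are red in all 5 EA columns, Dnajc4 is blue in all of them, and EA 3 holds the lowest EA value of 21 of the 40 rows.

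Levels differed far more between members than between groups. The mean over the 10 libraries went from 0.811 FPKM for Dnajb3 to 99.1 FPKM for Dnaja1, with a median of 15.2 FPKM. After Dnaja1 came Dnajb5 (69.8 FPKM), Dnaja2 (64.2), Dnajb2 (57.3), Dnajc6 (51.9), Dnajc8 (49.4), Dnajc7 (48.9), Dnajc5 (44.0), Dnajc27 (40.8) and Dnajb1 (31.2). Class A, with 4 genes, was led by Dnaja1 and Dnaja2, while the 25 class C genes shared their sum more evenly. The members lay on 17 chromosomes, with 7 on chromosome 5, and Dnaja1 and Dnajb5 were 1.35 Mb apart there. In Rnor_6.0, 8 members overlapped another tested gene (Dnajb3, Dnajb14, Dnajc2, Dnajc3, Dnajc17, Dnajc19, Dnajc25 and Dnajc30). How the counting treated strand is not stated, so their values may hold reads of the overlapping gene.

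The Hsp70 partners give the other side of the cycle. Of 33 partner genes tested (Hsp70 chaperones, their exchange factors, J proteins with other names, Hsp90 and its helpers), edgeR called 0. At an unadjusted p under 0.05, 12 were higher and 0 lower, against 6.59% and 7.15% of all genes, and their median log2 fold change was 0.09. DESeq2 called 3 higher (Hsp90aa1, Hspa1b and Hsph1) and 0 lower, against 0.508% and 0.6% of all genes. The list was drawn up with results of these rats known, so the count is not independent evidence.

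Hspa1b, the stress-inducible Hsp70, was at 5.10, 4.47, 5.97, 5.07 and 6.82 FPKM in control 1 to 5 and at 65.6, 8.41, 47.2, 16.4 and 37.5 FPKM in EA 1 to 5. All EA libraries lay above all controls, but EA 2 was only just above while EA 1 was the highest. This was a log2 fold change of 2.7 (SE 0.45, edgeR adjusted p 0.0897, DESeq2 adjusted p 7.848e-05). For Dnaja1, EA 1 was also the highest and EA 5, EA 4 and EA 2 followed in the same order as for Hspa1b, but EA 3 was the lowest. The order of Dnajb1 differed, with EA 4 the highest and EA 5 the lowest. EA 2 held 110 FPKM of Dnaja1 and 33.9 FPKM of Dnajb1, both within the range of the other EA libraries. Hspa1b has a near-identical copy, Hspa1a, which has no row of its own, so reads of the pair cannot be told apart.

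Hsp90aa1, the inducible cytosolic Hsp90, was at 160, 162, 151, 163 and 152 FPKM in control and at 197, 183, 179, 177 and 197 FPKM in EA. The groups did not overlap (log2 fold change 0.26, edgeR adjusted p 0.0897, DESeq2 adjusted p 5.33e-05). Hsph1, the Hsp110 that acts with Dnajb1, was at 62.8 to 76.2 FPKM in control and 70.1 to 98.0 FPKM in EA. Its log2 fold change was 0.30 (edgeR adjusted p 0.178, DESeq2 adjusted p 0.01302). Hspa5, the partner of the ER members, was at 107 to 120 FPKM in control and 119 to 133 FPKM in EA. It had a log2 fold change of 0.21 (edgeR adjusted p 0.119, DESeq2 adjusted p 0.0006172). DESeq2 did not call Hspa5 because the change was under 1.2-fold. Stip1, which links Hsp70 to Hsp90, had a log2 fold change of 0.19 (edgeR adjusted p 0.183, DESeq2 adjusted p 0.03786), also under 1.2-fold. Bag3, an exchange factor of stressed cells, had 0.27 (edgeR adjusted p 0.224, DESeq2 adjusted p 0.109). Hspa8, the constitutive Hsp70, was at 286 ± 28.6 FPKM (SD, n = 5) in control and 323 ± 27.4 FPKM in EA. Its log2 fold change was 0.20 (edgeR adjusted p 0.272, DESeq2 adjusted p 0.131).

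**Figure D5:**
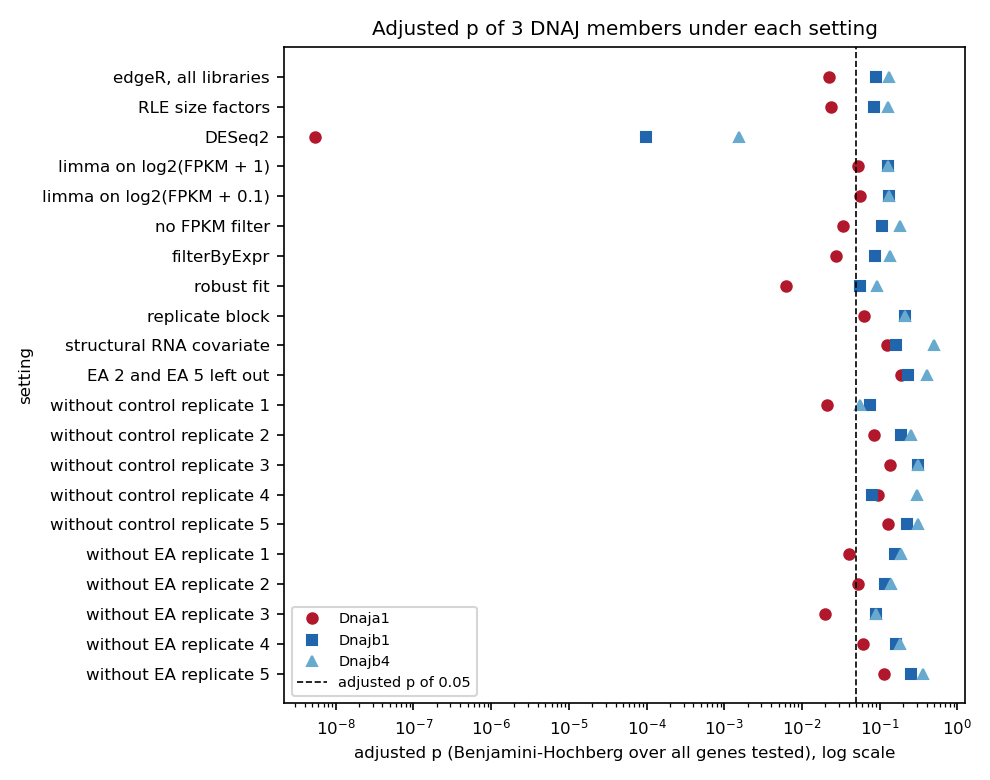
Adjusted p (log scale) of Dnaja1, Dnajb1 and Dnajb4 with all libraries by edgeR and under each of the 20 alternatives, with a dashed line at 0.05. Dnaja1 lies left of the line with all libraries (0.0220) and right of it in 12 of the alternatives, while Dnajb1 and Dnajb4 lie left of it only by DESeq2.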

How the data were processed

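Poly(A) RNA of 5 control and 5 EA cortices was sequenced as stranded paired reads. Reads were trimmed by the authors with Cutadapt 1.9, aligned with HISAT2 2.0.4 to Rnor_6.0, assembled with StringTie 1.3.4d and merged with gffcompare 0.9.8, while the submitters' notes list HISAT2 2.0, StringTie 1.3.0 and Bowtie 0.12.2. FPKM values were made by the authors with ballgown. Per gene, the authors also deposited whole-number estimated counts, with no statement of how they were drawn or whether strand was used. An FPKM of 0.0001 stands for 0.

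Counts of all 15169 genes with at least 0.5 FPKM in at least 5 of 10 libraries were tested here with the quasi-likelihood F test of edgeR 4.0.16 (TMM scaling, group only, R 4.3.3), with Benjamini-Hochberg adjustment over all of them. SE is the log2 fold change over the root of F. FPKM was used for levels. Alternatives were DESeq2 1.42.0, limma 3.58.1 on log2(FPKM + 1) and log2(FPKM + 0.1), other filters and scaling, the replicate number as a block, a covariate for structural RNA, and libraries left out. The scripts were tested on simulated data. Members, lists and the rule for named genes were chosen with earlier results of these data known. Given per library were the 4 members with the lowest p and the 3 with the highest FPKM in each class, and those called or without overlap. Among partners, those without overlap were given per library. The rest of the 6 partners with the lowest p were given by range or by log2 fold change only. The values of Dnajc3 and Hspa8 were added after they were seen. Promoter windows came from RefSeq (GRCr8), matched by symbol. The authors' fold change and p-value columns were not used.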

Additional observations from a re-analysis of the deposited data

Results flagged for a closer look

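In 4 of the 80 groups of 5 libraries (40 members in control and in EA) a single library stood apart from the other 4 by Dixon's test at 95%, a test that marks about 1 in 20 groups by chance. Dnaja4, a cytosolic class A gene, was at 33.6 FPKM in EA 2, where the other EA libraries had 29.2 to 30.3 FPKM. Dnajb14, an ER membrane protein, was at 3.22 FPKM in control 5 against 4.61 to 5.14 FPKM in the other controls. Dnajc8, the splicing-related member, was at 45.4 FPKM in control 4 against 49.4 to 50.8 FPKM. Dnajc9, the histone chaperone, was at 11.7 FPKM in EA 1 against 13.5 to 14.1 FPKM in the other EA libraries. None of these genes was called in any setting.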

How the results depend on the processing

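No called member changed direction in any alternative. Dnajb2, at -0.01, came to just above 0 with the structural RNA covariate and without control 2, control 3, EA 3 or EA 5, at most 0.02. The medians of classes A (0.02 to 0.09), B (0.03 to 0.09) and C (0.03 to 0.09) stayed above 0. The 1 member called higher became 3 by DESeq2, 0 by limma with either pseudocount, 0 with the replicate block, 0 with the structural RNA covariate, 0 without EA 2 and EA 5, and 0 to 1 when each library was left out in turn. Dnaja1 had an adjusted p of 0.0523 and 0.0556 by limma with a pseudocount of 1 and 0.1, and 0.123 with the structural RNA covariate. Of the 5 members higher at an unadjusted p under 0.05, 3 were left by limma with either pseudocount, 3 with the structural RNA covariate and 3 without EA 2 and EA 5, with 3 to 9 when each library was left out. The 1 lower at that level became 3 by limma with either pseudocount and 2 with the replicate block, with 1 to 3 when each library was left out. The share of all genes at that unadjusted level was counted only by edgeR with all libraries. Over all genes, 3 called higher became 77 by DESeq2, 1 by limma with a pseudocount of 0.1, 0 with the replicate block, 1 with the structural RNA covariate and 1 to 5 when each library was left out. The 0 called lower became 91 by DESeq2, 1 by limma with either pseudocount, 2 with the structural RNA covariate, 2 without EA 2 and EA 5 and 0 to 1 when each library was left out. The cause of these shifts was not tested.

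With the replicate number as a block, Dnaja1 had a log2 fold change of 0.40 and an adjusted p of 0.0625. Deviations of same-numbered libraries correlated at 0.0006 to 0.078, so the numbers were not taken as pairs, and only control 1 and control 2 correlated best with the EA library of their own number. Taking members at 1 FPKM or more in at least 5 libraries left out Dnajb3. The counts of members called and of members at an unadjusted p under 0.05 stayed the same, and the class B median went from 0.061 to 0.063. Taking all rows of a symbol that passed the filter gave the same members, because each symbol had 1 row, so it could change nothing. The genes outside the filter were not added in any alternative of the member rule. Depth limits Dnajb3 most, with 22 to 84 counts per library, where the next lowest member, Dnajc25, had 158 to 249.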
